A study of Mus musculus with 16 samples.

Results

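The 168 genes described here are the expressed members of the mouse Zfp series, genes named Zfp and a number for a zinc-finger protein. They were chosen by name and by level: a probe set had to carry exactly 1 gene symbol, made of Zfp, a number and at most 1 letter, and the brightest probe set by mean over all 16 arrays stood for a gene. A gene was kept where that mean was 7.5 or more on the log2 scale, which took 168 of 362 such genes and left 194 out. Only the mean over all arrays entered this choice, and no test of differences between subsets did. A gene dim in some subsets could still reach that mean through subsets where it was high. In 29 of the 168 genes at least 1 subset mean lay under 7.5. The array covered 22180 genes with a probe set of a single symbol, and 7996 of them, the 168 included, reached the same level.

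The cells were CD8 T cells taken from spleens of C57BL/6 females (C56BL/6 in the strain field of the labels) and sorted as negative for lineage markers and positive for TCRb and CD8. All mice had received murine leukemia cells of Eµ-TCL1 mice, whose TCL1 transgene, under the immunoglobulin Eµ enhancer, drives a B-cell disease like human chronic lymphocytic leukemia (CLL), and RNA was taken 6 weeks later. Naive cells were CD127hi CD44low, and memory cells were CD127hi CD44hi. Both effector subsets were CD127low CD44int-hi, and surface PD-1 divided them into PD-1int and PD-1hi cells. CD127 is the interleukin 7 receptor chain, CD44 an adhesion receptor of antigen-experienced cells, and PD-1 an inhibitory receptor. Each subset has 4 GeneChip Mouse Gene 2.0 ST arrays, numbered 1 to 4 after titles that begin AT1 to AT4 in every subset. Leukemia transfer is common to all 4 subsets, so each comparison is between cells of leukemic mice. The labels do not say what these numbers mark or whether arrays come from separate mice, so a p-value here weighs a difference against the spread of these samples only, which may be technical. The preparations are bulk, so fewer cells of a type and less RNA per cell cannot be told apart.

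Most Zfp genes encode proteins with tandem C2H2 fingers, each of which folds around a zinc ion and reads a few bases of DNA. A large branch joins the fingers to a KRAB domain, which recruits Trim28 and, through it, histone methylation and HP1 proteins, and many of these proteins bind retroelements. Other members bear the name for historical reasons and have different work: Zfp36 (tristetraprolin) brings AU-rich mRNAs to the deadenylase, Zfp622 takes part in maturation of the large ribosomal subunit, and Zfp207 (BuGZ) acts at kinetochores and the spindle.

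The 250 bases before the transcription start are given for 6 members on which the results below turn: 3 that were lower in PD-1hi cells than in naive cells (Zfp827, Zfp60 and Zfp1), 2 that were higher (Zfp367 and Zfp948), and Zfp296, which was high in memory cells alone. They were read from the RefSeq promoter table of GRCm38.p6 and run 5′ to 3′ on the strand of the gene. Zfp827 lies at chr8:79028187-79028436 on the plus strand, Zfp60 at chr7:27731159-27731408 on the plus strand, and Zfp1 at chr8:111643193-111643442 on the plus strand. Zfp367 lies at chr13:64153200-64153449 on the minus strand, Zfp948 at chr17:21566728-21566977 on the plus strand, and Zfp296 at chr7:19577037-19577286 on the plus strand. Capitals mark a match to a searched motif: a TCF and LEF motif in Zfp827, an ETS motif in Zfp60, a ZNF143 motif in Zfp1 and an E2F motif in Zfp367. Zfp948 and Zfp296 hold none of the letters searched.
Zfp827: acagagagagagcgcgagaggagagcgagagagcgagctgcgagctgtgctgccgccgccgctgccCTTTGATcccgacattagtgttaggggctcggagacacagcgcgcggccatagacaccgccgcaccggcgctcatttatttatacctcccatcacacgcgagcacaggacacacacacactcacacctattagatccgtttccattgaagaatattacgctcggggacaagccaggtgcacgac
Zfp60: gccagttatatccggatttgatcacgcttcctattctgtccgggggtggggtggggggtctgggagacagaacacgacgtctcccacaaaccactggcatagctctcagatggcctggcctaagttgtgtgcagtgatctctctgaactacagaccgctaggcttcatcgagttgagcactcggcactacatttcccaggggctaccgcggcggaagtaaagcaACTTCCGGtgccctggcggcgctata
Zfp1: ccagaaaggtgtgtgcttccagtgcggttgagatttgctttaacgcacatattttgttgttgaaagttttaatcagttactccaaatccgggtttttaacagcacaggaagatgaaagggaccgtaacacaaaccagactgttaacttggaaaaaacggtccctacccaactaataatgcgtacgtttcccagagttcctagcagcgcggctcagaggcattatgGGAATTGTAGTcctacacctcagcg
Zfp367: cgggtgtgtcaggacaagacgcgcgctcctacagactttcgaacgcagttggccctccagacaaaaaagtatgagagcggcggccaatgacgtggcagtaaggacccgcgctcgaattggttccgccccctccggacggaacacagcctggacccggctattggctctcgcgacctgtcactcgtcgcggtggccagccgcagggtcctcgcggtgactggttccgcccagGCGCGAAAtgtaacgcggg
Zfp948: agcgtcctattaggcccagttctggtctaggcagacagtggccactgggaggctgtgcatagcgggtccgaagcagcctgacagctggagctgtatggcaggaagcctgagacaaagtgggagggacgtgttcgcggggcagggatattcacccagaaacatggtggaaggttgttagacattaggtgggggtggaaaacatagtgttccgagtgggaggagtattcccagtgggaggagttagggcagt
Zfp296: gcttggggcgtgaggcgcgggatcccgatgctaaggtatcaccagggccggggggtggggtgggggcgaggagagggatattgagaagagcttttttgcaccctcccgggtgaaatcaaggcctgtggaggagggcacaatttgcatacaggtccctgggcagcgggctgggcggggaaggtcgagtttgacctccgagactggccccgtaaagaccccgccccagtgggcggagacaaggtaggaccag

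Array medians lay between 6.39 and 6.49, and values ran from 2.35 to 14.13. Over all genes, arrays of a subset correlated with r of at least 0.99 and arrays of different subsets with r of up to 0.991, and no pair was identical. All 7 measured CD8 T-cell markers had a mean of 7.5 or more in every subset. Mitosis genes differed between subsets: of 29 measured, 2 had a mean of 7.5 or more in naive cells, 18 in memory cells, 28 in PD-1int cells and 29 in PD-1hi cells. The summed level of 16 B-cell and CLL markers was between 11.75 and 11.85 in naive arrays and between 12.06 and 12.28 in memory arrays. PD-1int arrays had 11.95 to 12.28 and PD-1hi arrays 11.57 to 11.98. Of these 16, 1 was called higher and 1 lower in memory than in naive cells, with a median difference of -0.02. For 13 myeloid and dendritic markers the sum was lowest in naive arrays, 10.89 to 11.09, and highest in PD-1int arrays, 11.79 to 11.99. Only 3 of these 13 were called higher in PD-1int than in naive cells and none lower, with a median difference of 0.11. For 7 CD4 and regulatory T-cell markers the sum was 9.40 to 9.56 in naive and 10.25 to 10.47 in PD-1hi arrays. Only 2 of these 7 were called higher in PD-1hi than in naive cells and none lower, with a median difference of 0.1. The summed level of 7 natural killer and innate-like T-cell markers was 8.90 to 9.08 in naive arrays and highest in memory arrays, 9.50 to 9.86. Memory cells exceeded naive cells in 4 of these 7. The part of these differences in the results below was not tested.

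The 168 genes had a median level of 8.42, against 6.61 for all genes, as the choice by level requires. Levels of different probe sets are not comparable as amounts of RNA, so the level only says how far a gene lay above the dim end of the scale. In 7 genes the mean was 10 or more, in 40 it was 9 or more and in 51 it was under 8. The 7.5 level was reached in every subset by 139 genes, and 29 fell under it in at least 1 subset. Zfp456 alone reached it in only 1 subset, naive cells, and its limma F test had an adjusted p of 0.683. Just inside the threshold were Zfp219 with a mean of 7.53, Zfp668 with 7.53 and Zfp456 with 7.51. Just outside were Zfp606 with 7.49, Zfp950 with 7.48 and Zfp958 with 7.48. The median level over the 168 genes was highest in naive cells at 8.52, followed by memory cells at 8.43, PD-1int cells at 8.38 and PD-1hi cells at 8.25.

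Among the 4 subsets, 71 of the 168 genes (42.3%) varied by limma's F test at a Benjamini-Hochberg adjusted p under 0.05, against 30.4% of all genes and 61.3% of the genes at 7.5 or more. Of the 139 genes at 7.5 or more in every subset, 51 varied. Among the 71, naive cells had the highest mean for 44, memory cells for 13, PD-1int cells for 6 and PD-1hi cells for 8. PD-1hi cells had the lowest mean for 46, memory cells for 10, PD-1int cells for 9 and naive cells for 6. In 29 genes the means lay in the order naive, memory, PD-1int, PD-1hi from high to low, among them Zfp386, Zfp281, Zfp592, Zfp1, Zfp60 and Zfp710. In 4 genes (Zfp513, Zfp808, Zfp367 and Zfp668) they lay in the opposite order. These splits by subset and by order were not counted over all genes, so they are not shown to be particular to Zfp genes. A range of subset means of at least 1 was seen in 12 genes, Zfp296 with 1.93, Zfp827 with 1.90, Zfp992 with 1.82 and Zfp948 with 1.47 first among them. At the other end, 52 genes had a range under 0.25, and 84 passed neither the F test nor any comparison of a pair of subsets. The counts by range and by absence of a call were not made over all genes either. They are not shown to be particular to Zfp genes.

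**Figure D1:**
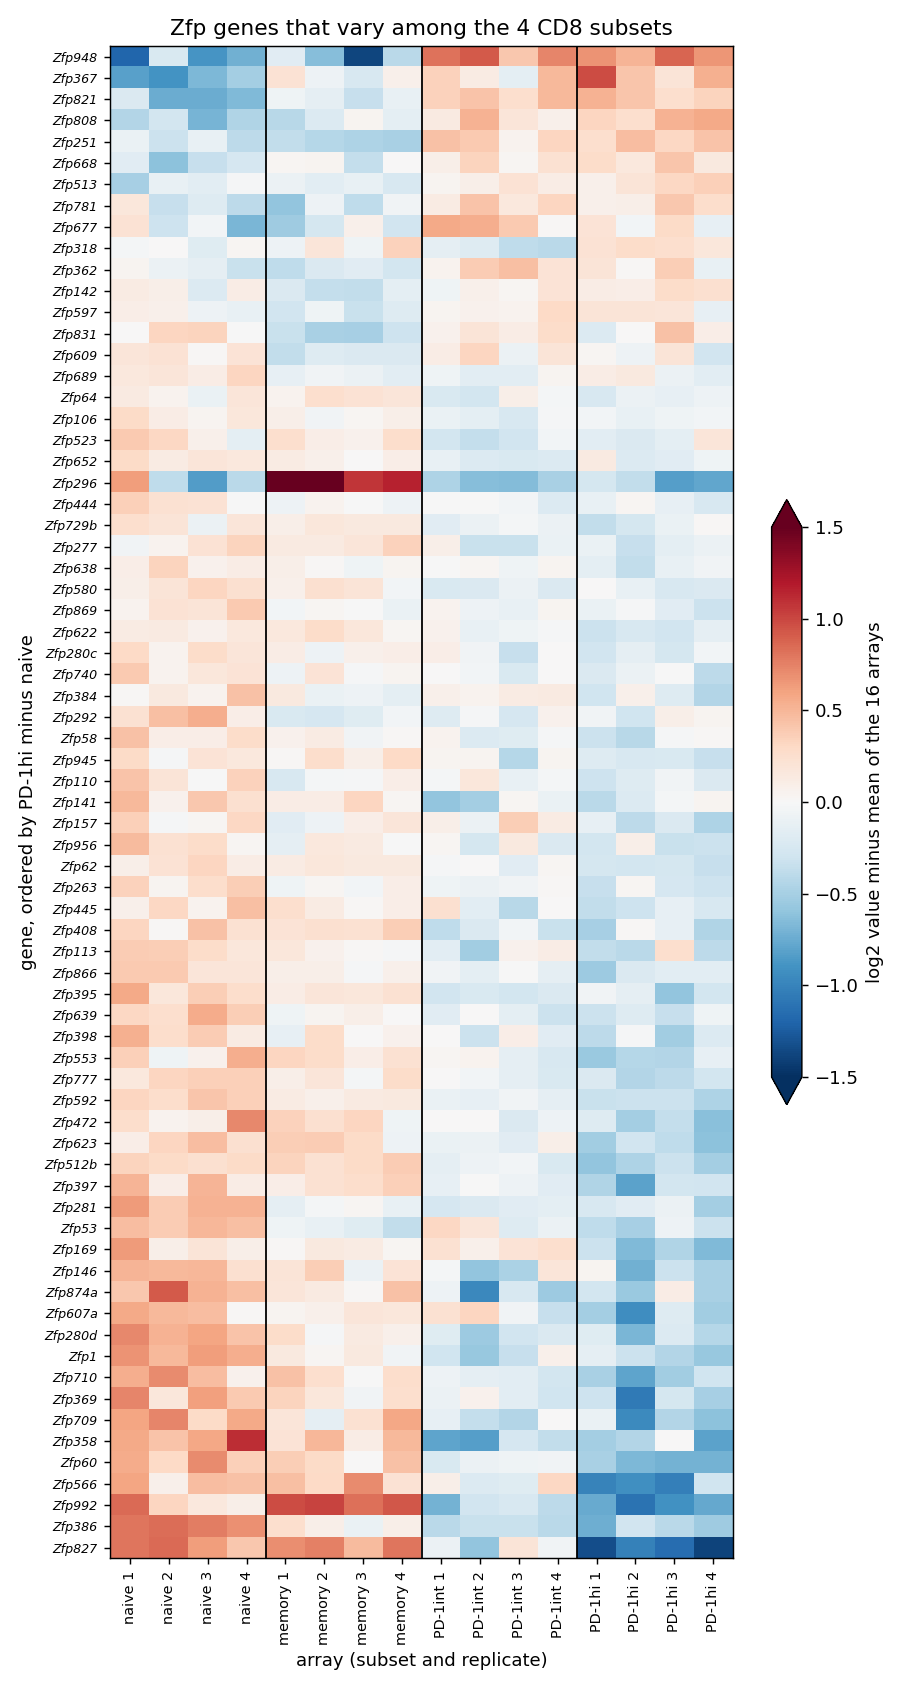
Each line is 1 of the 71 genes that passed the F test and each column 1 of the 16 arrays; colour gives the log2 value minus the gene's mean over the 16 arrays. The blue block of PD-1hi arrays in the lower part holds the genes lower there than in naive cells, with Zfp827 last, and Zfp948 and Zfp367 lead the upper end.

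In PD-1hi effector cells compared with naive cells, 56 Zfp genes were lower and 10 were higher. The lower share, 33.3%, stood beside 13.7% of all genes and 26.8% of the genes at 7.5 or more. The higher share was 5.95%, beside 13.4% of all genes and 27.4% of those at 7.5 or more. Whether called or not, 51 of the 168 genes (30.4%) were lower and 8 (4.76%) higher without overlap of the 4 arrays of each subset, against 13% and 12.8% of all genes. These included 48 of the 56 lower calls and 8 of the 10 higher calls. Separation of arrays was not counted for the genes at 7.5 or more, whose shares of calls were above those of all genes. Of the 139 genes at 7.5 or more in every subset, 43 were lower and 4 higher. The median log2 difference of the 168 genes was -0.20, and 135 of them (80.4%) were below 0, against a median of -0.01 and 52.9% below 0 over all genes. Changes were mostly small, since 8 genes fell and 2 rose by 2-fold or more. Changes of this size were not counted over all genes.

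The lower share was 29.4% (15 of 51) for members between 7.5 and 8, 32.5% (25 of 77) between 8 and 9, and 40% (16 of 40) at 9 or more. All genes of these levels were lower in 26.9%, 27% and 26.6% of cases. The higher share was 9.8%, 5.19% and 2.5% for members, while for all genes it was 21.4%, 24.6% and 31.6%. Standard errors had a median of 0.113 for the 168 genes and 0.104 for all genes.

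**Figure D2:**
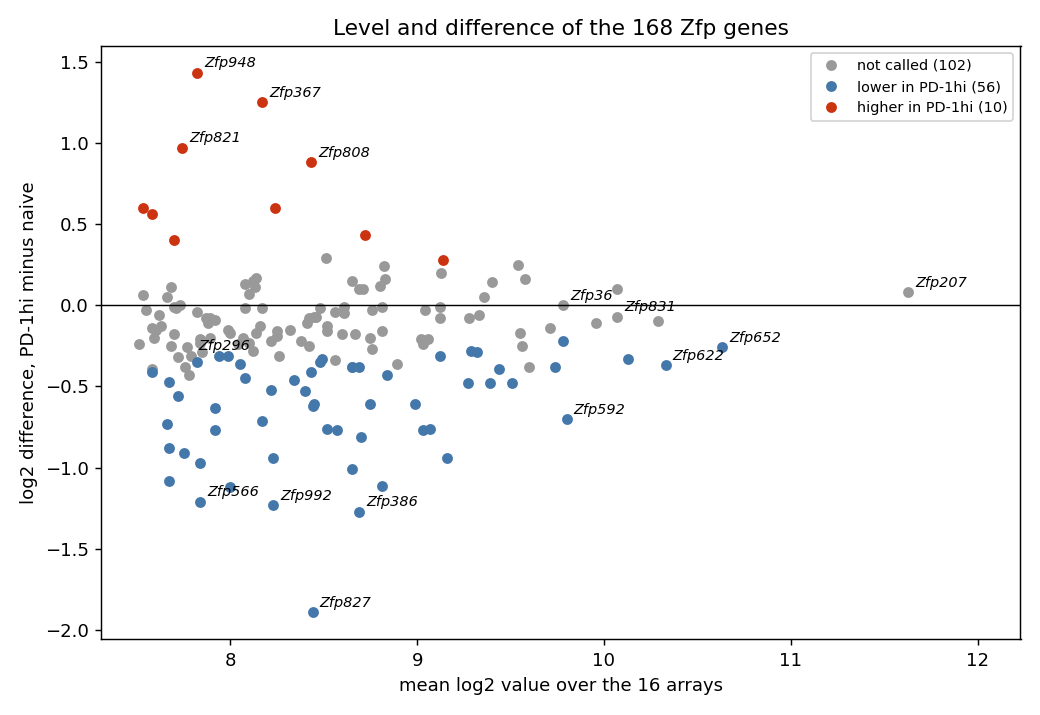
Each point is 1 of the 168 genes, with its mean log2 value over the 16 arrays on the horizontal axis and the log2 difference of PD-1hi minus naive on the vertical axis; colour shows the limma call at an adjusted p under 0.05. Blue points (56, lower in PD-1hi) occur at all levels up to Zfp652, and the 10 red points (higher) lie at means of 9.14 (Zfp318) or less.

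Zfp827, which recruits the NuRD remodelling complex to telomeres in cells that lengthen them by recombination, had the largest fall. Its log2 values were 9.24, 9.29, 9.06 and 8.84 in naive arrays and 9.13, 9.19, 8.91 and 9.24 in memory arrays. They were 8.35, 7.84, 8.63 and 8.38 in PD-1int arrays and 7.10, 7.42, 7.29 and 7.05 in PD-1hi arrays. Naive and memory values interleaved, every PD-1int value lay below every naive value, and every PD-1hi value lay below all others. PD-1hi cells were 3.71-fold below naive cells (log2 difference -1.89 ± 0.14 SE, limma adjusted p = 7.97e-09). PD-1int cells differed from naive by -0.81 ± 0.14 (limma adjusted p = 0.000316).

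Zfp386 had values of 9.49, 9.53, 9.46 and 9.38 in naive arrays and 8.94, 8.78, 8.59 and 8.78 in memory arrays. In effector cells its values were 8.29, 8.36, 8.35 and 8.28 (PD-1int) and 7.96, 8.40, 8.28 and 8.16 (PD-1hi). The naive arrays stood above all others, the memory arrays were intermediate, and the effector arrays overlapped. The log2 difference of PD-1hi from naive was -1.27 ± 0.09 (limma adjusted p = 4.18e-09), a 2.41-fold fall. Zfp566 followed another course: its values were 8.43, 7.92, 8.31 and 8.28 in naive arrays and 6.84, 6.92, 6.82 and 7.54 in PD-1hi arrays. Its memory arrays (8.29, 8.14, 8.55 and 8.06) interleaved with naive ones, and its PD-1int arrays (7.93, 7.64, 7.66 and 8.15) reached above the lowest naive array. The fall in PD-1hi cells was -1.21 ± 0.16 (limma adjusted p = 1.2e-05).

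Zfp60, whose promoter is shown above, had values of 8.55, 8.29, 8.71 and 8.35 in naive arrays and 7.51, 7.32, 7.29 and 7.29 in PD-1hi arrays. The 2 sets were separate, with a log2 difference of -1.12 ± 0.11 (limma adjusted p = 1.31e-07). Falls of a similar size were measured for Zfp992 (-1.23 ± 0.14), Zfp358 (-1.11 ± 0.18), Zfp709 (-1.08 ± 0.17), Zfp369 (-1.01 ± 0.16), Zfp710 (-0.97 ± 0.13) and Zfp1 (-0.94 ± 0.12), with limma adjusted p between 1.77e-06 and 6.87e-05. Zfp369 and Zfp110 are the neurotrophin receptor-interacting factors first described in neurons, and both were called lower in PD-1hi cells. The naive and PD-1hi arrays of the 6 genes with values here did not overlap.

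Zfp948 rose most. Its naive arrays read 6.62, 7.59, 6.93 and 7.10, and its memory arrays 7.65, 7.18, 6.44 and 7.41. PD-1int arrays had 8.63, 8.74, 8.22 and 8.55, and PD-1hi arrays 8.49, 8.32, 8.69 and 8.48. Both effector subsets stood above both CD127hi subsets without overlap, and the CD127hi arrays were spread over more than 1 log2 unit at the dim end of the scale. PD-1hi exceeded naive by 1.43 ± 0.22 (limma adjusted p = 4.65e-05), a 2.70-fold rise. Zfp367 had 7.35, 7.27, 7.5 and 7.66 in naive arrays and 9.15, 8.58, 8.36 and 8.70 in PD-1hi arrays. Its memory arrays (8.38, 8.09, 7.93 and 8.25) and PD-1int arrays (8.51, 8.29, 8.02 and 8.65) lay above every naive array and overlapped each other. The rise in PD-1hi cells was 1.25 ± 0.16 (limma adjusted p = 5.71e-06). Its course ran beside that of the mitosis genes, all 29 of which were higher in PD-1hi than in naive cells, and the part of cell division in it was not tested.

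Zfp821 had values of 7.52, 6.99, 7.0 and 7.08 in naive and 8.26, 8.15, 7.99 and 8.07 in PD-1hi arrays, a rise of 0.97 ± 0.11 (limma adjusted p = 1.48e-06). Zfp808 rose from 7.99, 8.16, 7.74 and 7.98 in naive to 8.75, 8.68, 8.96 and 9.0 in PD-1hi arrays (0.88 ± 0.12, limma adjusted p = 1.38e-05). In both genes the subsets were separate. Smaller rises were measured for Zfp668 (0.60 ± 0.11), Zfp251 (0.60 ± 0.09) and Zfp513 (0.43 ± 0.10). The remaining calls are less steady: Zfp318 (0.28 ± 0.10, adjusted p = 0.0393 by limma) lost its call in 7 of 8 fits that left out 1 array, with the highest adjusted p, 0.123, without naive replicate 3. It also lost it with median centring (limma adjusted p = 0.0654) and with array weights (0.0509). Zfp781 lost its call in 5 of 8 such fits and Zfp760 in 7, both with the highest adjusted p without naive replicate 4 (0.118 and 0.152 by limma). Over the 66 genes called, 54 kept the call whichever of the 8 arrays was left out.

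**Figure D3:**
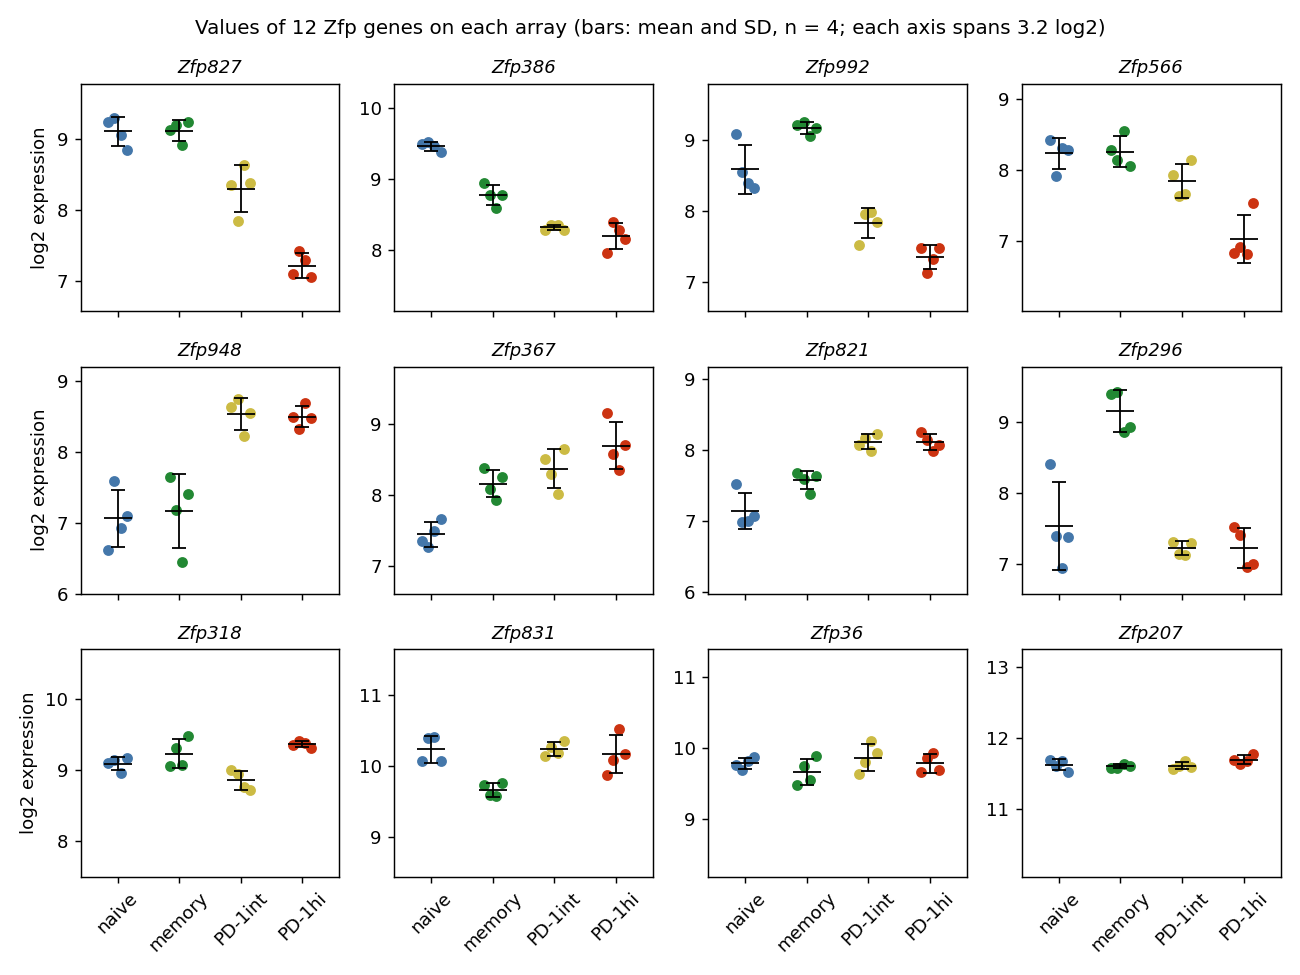
Points are log2 values of single arrays for 12 genes in the 4 subsets, with the mean and SD (n = 4) as bars; every panel spans the same length of log2 scale. Zfp827 and Zfp566 are lowest in PD-1hi cells, Zfp948 is high in both effector subsets, Zfp296 is high in memory cells, and the subsets overlap for Zfp36 and Zfp207.

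In PD-1int effector cells compared with naive cells, 40 genes were lower (23.8%, beside 10.8% of all genes and 19.7% of those at 7.5 or more). Another 10 were higher (5.95%, beside 11.9% and 25.5%). The median difference was -0.15, and 122 of the 168 genes were below 0. Zfp358 fell furthest: its values were 9.38, 9.24, 9.39 and 9.91 in naive arrays and 8.02, 7.98, 8.55 and 8.44 in PD-1int arrays. The subsets were separate, and the difference was -1.23 ± 0.18 (limma adjusted p = 3.11e-05). In PD-1hi arrays Zfp358 had values of 8.30, 8.37, 8.81 and 8.01, which overlapped those of PD-1int cells. Zfp386 fell by 1.15 ± 0.09 (limma adjusted p = 2.36e-08) and Zfp874a by 1.03 ± 0.18 (limma adjusted p = 0.000267).

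Zfp1 fell by 0.87 ± 0.12 and Zfp280d by 0.87 ± 0.11 in PD-1int cells (limma adjusted p = 1.8e-05 and 1.25e-05). Zfp992, with values of 9.08, 8.55, 8.39 and 8.32 in naive arrays, had 7.52, 7.95, 7.99 and 7.84 in PD-1int arrays. These did not overlap, and the difference was -0.76 ± 0.14 (limma adjusted p = 0.000508). Zfp281, a GC-box binding factor best known from embryonic stem cells, fell by 0.71 ± 0.09 (limma adjusted p = 5.86e-06). Its naive arrays read 9.21, 8.95, 9.09 and 9.10 and its PD-1int arrays 8.32, 8.36, 8.40 and 8.43. The rises were led by Zfp948 (1.47 ± 0.22), Zfp821 (0.97 ± 0.11), Zfp367 (0.92 ± 0.16), Zfp808 (0.70 ± 0.12) and Zfp251 (0.54 ± 0.09), with limma adjusted p between 2.2e-06 and 0.000283. Both effector comparisons use the same naive arrays, so these values are given side by side and are not independent of those for PD-1hi cells. Of the 50 calls, 31 were kept whichever of the 8 arrays was left out. Zfp513 (0.31 ± 0.10) lost its call without naive replicate 1 (limma adjusted p = 0.0824), without PD-1int replicate 3, and when the other 8 arrays were left out (0.0603). Zfp362 (0.40 ± 0.11) lost it in 2 of 8 fits, with 0.0533 as the highest limma adjusted p, without PD-1int replicate 3.

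In memory cells compared with naive cells, 13 genes were lower (7.74%, beside 5.02% of all genes and 10.2% of those at 7.5 or more) and 4 were higher (2.38%, beside 6.7% and 15.1%). The median difference was -0.11. Zfp296, a factor that aids reprogramming to pluripotency, rose most. Its values were 9.40, 9.43, 8.86 and 8.94 in memory arrays and 8.41, 7.40, 6.95 and 7.38 in naive arrays. They were 7.32, 7.15, 7.13 and 7.3 in PD-1int and 7.52, 7.42, 6.96 and 7.01 in PD-1hi arrays. Every memory array lay above all others, and naive replicate 1 was the highest of the rest. Memory exceeded naive 3.08-fold (log2 difference 1.62 ± 0.23, limma adjusted p = 7.76e-05). Zfp367 rose by 0.72 ± 0.16 in memory cells (limma adjusted p = 0.00486).

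Zfp992 was also higher in memory cells, by 0.59 ± 0.14 (limma adjusted p = 0.00926), with memory arrays at 9.21, 9.25, 9.06 and 9.16. These overlapped naive replicate 1, at 9.08. Among the falls, Zfp386 led with -0.69 ± 0.09 (limma adjusted p = 3.58e-05). Zfp53 followed with -0.64 ± 0.11 (limma adjusted p = 0.000682), at 9.49, 9.41, 9.52 and 9.48 in naive and 8.96, 8.91, 8.84 and 8.65 in memory arrays. Zfp281 fell by 0.57 ± 0.09 (limma adjusted p = 0.000164). Zfp831 fell by 0.57 ± 0.12 (limma adjusted p = 0.003), and its values of 9.73, 9.58, 9.57 and 9.76 in memory arrays lay below all 12 arrays of the other subsets. Zfp1, Zfp292 and Zfp609 fell by 0.51 ± 0.12, 0.51 ± 0.11 and 0.41 ± 0.10. Zfp609 is a partner of the cohesin loader Nipbl. Of the 17 calls 7 were lost in at least 1 of the fits that left out 1 array. The highest adjusted p of each was, for Zfp280d, that without memory replicate 2 (limma adjusted p = 0.0504), Zfp639 and Zfp821 without naive replicate 3 (0.0521 and 0.0548) and Zfp689 and Zfp949 without naive replicate 4 (0.0611 and 0.0921). For Zfp142 it came without memory replicate 3 (limma adjusted p = 0.098), and for Zfp592 without naive replicate 3 (0.103).

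**Figure D4:**
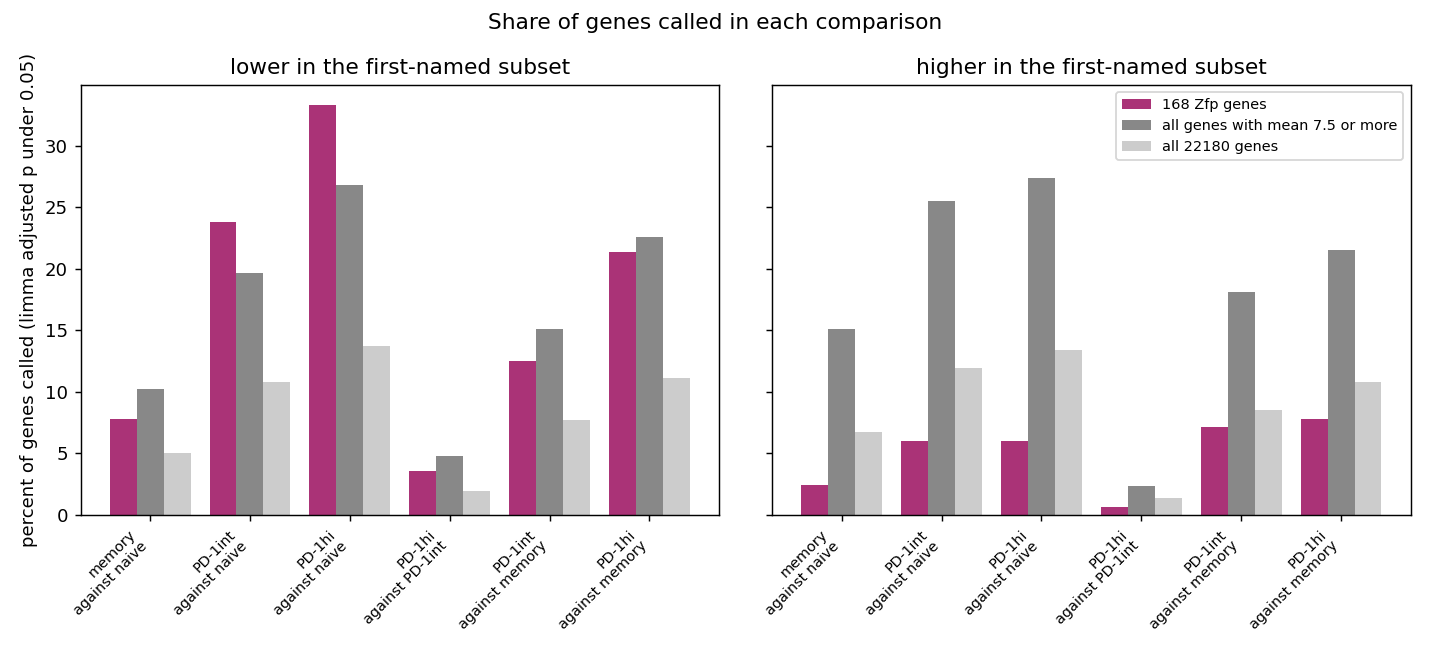
Bars give the percent of genes called lower (left) or higher (right) in the first-named subset, for the 168 Zfp genes, all genes at 7.5 or more, and all 22180 genes. For PD-1hi against naive the Zfp bar is 33.3 on the lower side and 5.95 on the higher side, beside 26.8 and 27.4 for genes at 7.5 or more.

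Between the effector subsets, which differ in PD-1 by the sort, 6 genes were lower in PD-1hi cells (3.57%, beside 1.94% of all genes and 4.78% of those at 7.5 or more). A single gene was higher (0.595%, beside 1.37% and 2.36%). Zfp827 fell by 1.08 ± 0.14 (limma adjusted p = 0.00021), and Zfp566 by 0.81 ± 0.16 (limma adjusted p = 0.00827). Zfp169 had values of 8.56, 8.01, 8.11 and 8.0 in naive, 7.93, 8.06, 8.04 and 7.95 in memory and 8.14, 7.99, 8.12 and 8.17 in PD-1int arrays. In PD-1hi arrays it had 7.60, 7.26, 7.47 and 7.26, below every other array. Its fall from PD-1int to PD-1hi was -0.71 ± 0.11 (limma adjusted p = 0.00112), while PD-1int differed from naive by -0.06 ± 0.11.

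Zfp60 fell by 0.54 ± 0.11 between the effector subsets (limma adjusted p = 0.00716). Zfp512b, a NuRD-binding protein, had 8.94, 9.0, 9.03 and 8.85 in PD-1int and 8.48, 8.61, 8.75 and 8.57 in PD-1hi arrays, which were separate. The difference was -0.35 ± 0.07 (limma adjusted p = 0.0101), which became 0.0541 when the other 8 arrays were left out. Zfp592, which acts with Zmynd8 and Zfp687 at chromatin, had 9.70, 9.68, 9.75 and 9.66 in PD-1int and 9.46, 9.48, 9.47 and 9.34 in PD-1hi arrays. It fell by 0.26 ± 0.06 (limma adjusted p = 0.0299), a call lost in 5 of 8 fits that left out 1 array (highest adjusted p = 0.106, without PD-1hi replicate 4) and in the fit of only the 8 arrays (adjusted p = 0.101). With the 40% dimmest genes left out before the adjustment, 11 genes in place of 7 passed. The single rise was that of Zfp318, a factor needed for IgD expression in B cells. It read 9.0, 8.95, 8.76 and 8.73 in PD-1int and 9.36, 9.42, 9.39 and 9.31 in PD-1hi arrays. The difference was 0.51 ± 0.10 (limma adjusted p = 0.00565). Of 16 B-cell and CLL markers, none was higher in PD-1hi than in PD-1int cells and 1 was lower. The part of B cells in the value of Zfp318 was not tested.

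Against memory cells, 36 genes were lower in PD-1hi cells (21.4%, beside 11.1% of all genes and 22.6% of those at 7.5 or more) and 13 were higher (7.74%, beside 10.8% and 21.5%). In PD-1int cells 21 were lower (12.5%, beside 7.66% and 15.1%) and 12 higher (7.14%, beside 8.49% and 18.1%). These 33 calls dropped to 20 without PD-1int replicate 2. Zfp296 was lower than in memory cells by 1.93 ± 0.23 in both effector subsets (limma adjusted p = 8.44e-06 for PD-1int and 3.99e-06 for PD-1hi). Zfp992 had 7.48, 7.13, 7.32 and 7.47 in PD-1hi arrays, all below its memory arrays. It was lower by 1.35 ± 0.14 in PD-1int and 1.82 ± 0.14 in PD-1hi cells than in memory cells (limma adjusted p = 2.23e-06 and 2.63e-08). Zfp827 was lower by 0.82 ± 0.14 and 1.90 ± 0.14 (limma adjusted p = 0.00049 and 1.67e-08).

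Zfp831 was higher in effector than in memory cells, at 10.13, 10.26, 10.18 and 10.35 in PD-1int arrays and 9.87, 10.08, 10.51 and 10.17 in PD-1hi arrays. Both sets lay above every memory array, with differences of 0.57 ± 0.12 and 0.50 ± 0.12 (limma adjusted p = 0.00206 and 0.00423). Zfp251 had 7.87, 7.81, 7.77 and 7.75 in memory arrays, 8.68, 8.63, 8.29 and 8.56 in PD-1int arrays and 8.49, 8.70, 8.55 and 8.66 in PD-1hi arrays. It was separate from memory in both, by 0.74 ± 0.09 and 0.80 ± 0.09 (limma adjusted p = 1.87e-05 and 3.91e-06). Zfp948 was higher by 1.36 ± 0.22 and 1.33 ± 0.22, and Zfp821 by 0.54 ± 0.11 in both. Zfp609 was higher in PD-1int than in memory cells (0.39 ± 0.10, limma adjusted p = 0.0122), a call lost without PD-1int replicate 2 (adjusted p = 0.0505).

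By what the proteins are known to do, the members split as follows, in a comparison where 13.7% of all genes were lower and 13.4% higher (26.8% and 27.4% of those at 7.5 or more). The groups are small, and a share near these says nothing particular about a group. Of 6 members of mRNA decay and RNA processing, 3 were lower in PD-1hi than in naive cells and none higher. These were Zfp638, which takes part in silencing unintegrated retroviral DNA (-0.33 ± 0.08, limma adjusted p = 0.00456), Zfp106 (-0.22 ± 0.07) and Zfp871 (-0.28 ± 0.10). The last 2 lost their calls in 5 and 6 of 8 fits that left out 1 array, with the highest limma adjusted p without naive replicate 1 (0.11) and PD-1hi replicate 2 (0.147). Zfp36 passed in no comparison: its naive arrays read 9.77, 9.69, 9.82 and 9.88, and its memory arrays 9.49, 9.75, 9.55 and 9.89. PD-1int arrays read 9.64, 9.81, 10.10 and 9.93, and PD-1hi arrays 9.66, 9.87, 9.94 and 9.69. All 4 subsets overlapped, and the 95% interval of its PD-1hi difference from naive ran from -0.23 to 0.23. Its relatives Zfp36l1 and Zfp36l2, which fall outside the naming pattern, were lower in PD-1hi cells by 1.15 ± 0.09 and 0.59 ± 0.18 (limma adjusted p = 2.29e-08 and 0.0213).

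Of 4 ribosome-associated members, Zfp622 was lower in PD-1hi cells. It had 10.45, 10.46, 10.39 and 10.48 in naive arrays and 10, 10.09, 10.04 and 10.19 in PD-1hi arrays, which were separate (-0.37 ± 0.07, limma adjusted p = 0.000642). Zfp277 was called lower too (-0.31 ± 0.11, limma adjusted p = 0.0394), but in 5 of 8 fits that left out 1 array it was not, with the highest adjusted p, 0.129, without naive replicate 4. Zfp598, the sensor of collided ribosomes, differed by -0.01 ± 0.11 and Zfp706 by 0.10 ± 0.09, and neither passed. Of 23 measured ribosome biogenesis genes outside the family, 16 were lower and none higher in PD-1hi than in naive cells.

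Zfp207 had the highest mean, 11.63, and read 11.69, 11.61, 11.68 and 11.52 in naive and 11.69, 11.64, 11.68 and 11.78 in PD-1hi arrays. These overlapped, with a 95% interval of -0.06 to 0.21 for the difference, in cells whose mitosis genes differed. Zfp652, a corepressor partner of Cbfa2t3, was next by mean. It fell by 0.26 ± 0.08 in PD-1hi cells (limma adjusted p = 0.016), a call lost in 3 of 8 fits that left out 1 array (highest adjusted p = 0.0594, without PD-1hi replicate 2). Of 10 members known as promoter and enhancer factors, 4 were lower in PD-1hi than in naive cells and 1 was higher. The lower genes were Zfp281 (-0.77 ± 0.09), Zfp263 (-0.48 ± 0.09), Zfp292 (-0.39 ± 0.11) and Zfp384 (-0.38 ± 0.11), and the higher one was Zfp318. The call of Zfp384 was lost in 2 of 8 such fits (highest limma adjusted p = 0.0588, without PD-1hi replicate 4). Zfp148 (ZBP-89) differed by -0.10 ± 0.09 and Zfp410, a dedicated regulator of Chd4, by 0.13 ± 0.09, and neither passed. Of 7 members known as chromatin complex partners, Zfp827, Zfp512b (-0.76 ± 0.07, limma adjusted p = 1.93e-07) and Zfp592 (-0.70 ± 0.06, limma adjusted p = 9.73e-08) were lower in PD-1hi cells. Zfp687, partner of Zfp592, differed by -0.11 ± 0.10 and did not pass.

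Of 4 members that are KRAB proteins and silence retroelements or hold imprints, Zfp445 was lower in PD-1hi cells (-0.48 ± 0.12, limma adjusted p = 0.00483). Zfp445 protects imprinted methylation in the early embryo. Its arrays read 9.35, 9.58, 9.33 and 9.72 in naive and 8.90, 8.96, 9.15 and 9.03 in PD-1hi cells, without overlap. Zfp809, which silences retroviruses through their proline primer binding site, differed by -0.25 ± 0.12 (limma adjusted p = 0.142). Zfp961 and Zfp429 differed by -0.20 ± 0.10 and -0.03 ± 0.10, and neither passed.

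Of 22 measured genes of the machinery that KRAB proteins recruit, 5 were higher and 6 lower in PD-1hi than in naive cells, with a median difference of 0.01. These shares lie near the 27.4% and 26.8% of genes at 7.5 or more, and single genes of the list are given for their own values. Trim28, the KRAB corepressor, fell by 0.35 ± 0.10 (limma adjusted p = 0.00979) and the histone methyltransferase Setdb1 by 0.38 ± 0.10 (limma adjusted p = 0.00749). The NuRD subunit Chd3 fell by 0.88 ± 0.09 (limma adjusted p = 3.2e-07). Cbx5 (HP1 alpha), Dnmt1 and Hdac1 rose by 1.27 ± 0.17, 1.01 ± 0.11 and 0.87 ± 0.08. Among 20 genes of the CCR4-NOT deadenylase and decapping, to which Zfp36 brings its targets, 2 were higher and 3 lower. Other zinc-finger factors of T cells went in both directions, 10 of 26 higher and 7 lower in PD-1hi than in naive cells, Ikzf2 (3.34 ± 0.20) and Prdm1 (3.71 ± 0.24) rising most.

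Markers of the naive and quiescent state fell in the same comparison as the Zfp genes: 16 of 17 were lower and none higher in PD-1hi than in naive cells, with a median difference of -2.65. Their part in the Zfp values was not tested. Among 27 immediate-early genes, which respond to stimulation and to handling, 11 were higher and 5 lower. In this comparison 13.4% of all genes were higher and 13.7% lower, and 27.4% and 26.8% of those at 7.5 or more.

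The least variable members were Zfp983, Zfp628 and Zfp407. Zfp983 read 8.47, 8.43, 8.54 and 8.53 in naive and 8.56, 8.53, 8.37 and 8.43 in PD-1hi arrays, with a 95% interval of -0.23 to 0.18 for the difference. Zfp983 is the next protein-coding gene to Zfp948, the gene that rose most, in the RefSeq gene order. In the order of protein-coding genes 37 of 167 members located lay beside another member, in 15 runs. Of these 37, 10 (27%) were lower in PD-1hi than in naive cells, and of the other 130 located members 46 (35.4%) were. Zfp783, a noncoding RNA in RefSeq, was the member not in that order. The longest run, Zfp398, Zfp282, Zfp212, Zfp956, Zfp777 and Zfp746, held 3 lower genes (Zfp398 -0.61, Zfp956 -0.47 and Zfp777 -0.63) and 3 that did not pass. Zfp783 lies between Zfp212 and Zfp956 of this run, and it differed by -0.11 ± 0.11 and did not pass. Zfp787 and Zfp444, a run of 2, were both lower (-0.35 and -0.31). Clustered Zfp genes are often near-identical copies, so probes of such a gene, for example Zfp729a and Zfp729b, may share signal, and their values are uncertain.

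A promoter was found in the table for 143 of the 168 members, 50 of the 56 lower and 9 of the 10 higher genes. The 250 bases before the start were searched on both strands for exact letters, and none of the printed promoters held overlapping motifs. The ETS motif CCGGAAGT occurred in 14 members (9.79%) and in 2.93% of the 27025 promoters of the table. It occurred in 6 of the 50 lower genes (12%), in none of the 9 higher genes and in 8 of the 84 called neither way (9.52%). The ZNF143 motif occurred in 4 members (2.8%) and in 0.285% of all promoters, and the NRF1 motif in 5 (3.5%) and in 0.781%. The E2F motifs TTTCCCGC, TTTCGCGC, TTTGCCGC and TTTGGCGC occurred in 8 members (5.59%) and in 1.91% of all promoters. A match was held by 2 of the 9 higher genes, Zfp367 and Zfp760, and by 2 of the 50 lower genes (4%). Of the 84 called neither way, 4 (4.76%) held one. The call of Zfp760 was lost in 7 of 8 fits that left out 1 array. The TCF and LEF motifs CTTTGAA and CTTTGAT occurred in 13 members (9.09%) and in 7.67% of all promoters. They occurred in 12% of the lower genes, in none of the 9 higher genes and in 8.33% of the members called neither way. RUNX (TGTGGTTT and TGTGGTTA), AP-1 (TGACTCA), CRE (TGACGTCA) and YY1 (AAGATGGC) motifs occurred in 1.4%, 3.5%, 2.1% and 2.1% of members, beside 2.18%, 4.43%, 1.62% and 1.59% of all promoters. In the promoter of Zfp827 the match reads CTTTGAT, in Zfp60 ACTTCCGG and in Zfp367 GCGCGAAA. The 27025 promoters were not chosen by level, as the members were, and no set of genes of like level was searched. A higher share in members cannot be told apart from an effect of that choice. A match is a description of letters and says nothing of binding.

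Of the 194 Zfp genes under the threshold, 20 reached 7.5 in the mean of at least 1 subset. They were picked through a subset above their overall mean, so the pick itself favours differences among subsets. That 13 of these passed the F test, beside 30.4% of all genes, is therefore no result about them. The limma p-values of single genes below carry the same limit. Zfp354c had 7.96, 7.54, 8.53 and 8.25 in naive arrays and 6.78, 6.20, 6.32 and 6.69 in PD-1hi arrays, which were separate (-1.57 ± 0.17, limma adjusted p = 1.05e-06). Zfp41 went the other way, with 7.11, 7.27, 6.76 and 6.82 in naive and 7.80, 7.75, 7.86 and 7.70 in PD-1hi arrays (0.79 ± 0.12, limma adjusted p = 4.01e-05). Genes at this level lie near the dim end, where log2 differences are compressed.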

How the data were processed

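RNA from an RNeasy Micro kit was labelled with the WT Pico kit, per the labels' protocols. Per the submitters' processing notes, the probe signals went through Affymetrix Power Tools, whose version and summarisation method the sources used here do not give. The deposited table holds log2 values by probe set, and its log base was read from the range. Of 41345 probe sets, 23521 carry 1 gene symbol, 1814 several and 16010 none in the platform annotation, and only the first were used. For a gene with more than 1 probe set, as for 16 of the 168 members, the brightest was taken. All 168 members matched RefSeq by Entrez identifier, with 0 changes of symbol. The files carry no detection calls, and the precision is limited by the number of arrays, 4 per subset.

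One limma model (version 3.58.1, R 4.3.3) with subset means, no block and eBayes took in all 16 arrays. Calls were made at an adjusted p under 0.05, with the Benjamini-Hochberg adjustment over 22180 genes. The fit was tested on simulated data.

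The members and gene lists were chosen with earlier results of these data known. Members are named where they are among the 10 largest rises or falls of a comparison with arrays that do not overlap, the 10 highest means, the 3 smallest ranges, the 3 genes on each side of the threshold, or a role list, and further ones beside a count of them were chosen after their values were seen. Zfp genes under the threshold that reach it in a subset are named by the same rule. For the other lists the rule allowed up to 4 genes per comparison, by smallest adjusted p. More genes of the KRAB machinery than that are given for PD-1hi against naive cells. Promoters come from the RefSeq table of GRCm38.p6, with the first-listed start of a gene. Alternatives changed the scaling (quantile or median), the model (replicate number as a block, only the 8 arrays of a pair, trend with robust eBayes, weights on arrays) or the genes (without the 40% dimmest, probe sets averaged), or left out 1 array at a time. Classes by protein sequence were not analysed here.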

Additional observations from a re-analysis of the deposited data

Results flagged for a closer look

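Single arrays that stood apart from the other 3 of their subset were searched for over 90 Zfp genes named by the rule, 360 groups of 4 arrays, and 22 groups held 1; chance gives about 1 in 20 groups. In naive cells these were Zfp131 replicate 2 (8.95), Zfp142 replicate 3 (8.45), Zfp146 replicate 4 (8.94), Zfp407 replicate 4 (7.34), Zfp518a replicate 1 (8.46), Zfp609 replicate 3 (8.27) and Zfp821 replicate 1 (7.52). All but the last lay below the other naive arrays. In memory cells they were Zfp217 replicate 4 (7.72), Zfp606 replicate 4 (7.63), Zfp609 replicate 1 (7.88) and Zfp668 replicate 3 (7.17). In PD-1int cells they were Zfp456 replicate 2 (6.96), Zfp597 replicate 4 (8.43), Zfp707 replicate 2 (7.27) and Zfp81 replicate 2 (7.04). In PD-1hi cells they were Zfp407 replicate 1 (7.79), Zfp566 replicate 4 (7.54), Zfp592 replicate 4 (9.34), Zfp597 replicate 4 (8.01), Zfp60 replicate 1 (7.51), Zfp628 replicate 2 (7.74) and Zfp82 replicate 3 (7.75). Leaving out PD-1hi replicate 4 ends the call of Zfp592 between the effector subsets, as given above.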

How the results depend on the processing

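The 95 results of a named member in a comparison were recomputed under 24 alternatives, 16 of which left out 1 array; of 2280 values, 2211 stayed on their side of the threshold, 69 no longer passed and 0 reversed. Counts of members called moved by over 1.5 times in 2 cases: PD-1hi against PD-1int cells gave 11 in place of 7 without the 40% dimmest genes, where fewer genes were tested, and PD-1int against memory cells gave 20 in place of 33 without PD-1int replicate 2. Without 1 array the counts ran from 13 to 19 for memory against naive, 39 to 53 for PD-1int against naive, 60 to 71 for PD-1hi against naive, 6 to 10 for PD-1hi against PD-1int, 20 to 37 for PD-1int against memory, 40 to 51 for PD-1hi against memory and 65 to 73 for the F test. Of 222 calls over the 6 comparisons, 71 were lost without some single array, and the cause was not tested. Deviations from the subset means correlated with r from -0.05 to 0.15 (mean 0.03) between same-numbered arrays, over 0.1 in 2 of 24 pairs. Between arrays of different numbers and subsets r ran from -0.17 to 0.2 (mean -0.01). The numbers, whose meaning the labels do not give, were not taken to pair arrays. Among arrays of other subsets, 10 of 16 arrays correlated best with one of their own number, a hint of a shared source from the data and not from the design. With the replicate number as a block the counts were 19, 51, 66, 8, 33 and 49 in the order just given, and 73 for the F test. Of the named results, the block ended the call of Zfp668 in PD-1hi against memory cells (limma adjusted p = 0.0694). That call, at a limma adjusted p of 0.0496 in the main fit, was not lost through the block alone. It was also lost with median centring (0.0921), with trend and robust eBayes (0.0605) and with array weights (0.0505). The fit of only the 8 arrays (0.0533) and 7 of 8 fits that left out 1 array lost it too. Dim genes have compressed differences, and no detection calls bound them.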
